A study of Mus musculus with 6 samples.

Results

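The genes Khdc1a, Bglap3, Gdpd3, Aplp1 and Clec2g were followed through 6 organoid libraries, with and without the chromatin remodeller Smarcad1. They are 5 of the 1420 genes in the deposited table of differentially expressed genes, and were taken by name because earlier readings of these data showed them far higher without Smarcad1. Their difference between the groups is therefore given as a description, with no test. The libraries hold mRNA of small intestinal (SI) organoids, which are epithelial structures grown in gel from crypts, collected 5 days after passage. WT organoids (n = 3) came from wild-type C57BL/6 mice, and KO organoids (n = 3) from mice of that strain in which Smarcad1 had been deleted. The genotype label names Vil-Cre, a driver of the intestinal epithelium, whereas the growth protocol and the study's methods name ZP3-cre, which acts in the oocyte and removes the gene from all cells, with litter mates as controls. The groups are called WT and KO for that reason. Ages of the mice are not given in the sources used here. The labels call the libraries biological triplicates without tying each one to a mouse, so p-values measure only the spread between these libraries.

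Smarcad1 is an ATPase of the SWI/SNF-like family that has been linked to the upkeep of heterochromatin, the compact and mostly silent form of chromatin. Of the 5 genes, Khdc1a, Bglap3 and Aplp1 are best known from other places than the gut lining. Khdc1a belongs to a family of KH domain genes of the oocyte and early embryo, Bglap3 to the osteocalcin genes, whose best known product is a bone matrix protein, and Aplp1 is a mostly neuronal relative of the amyloid precursor protein. Gdpd3 encodes an enzyme that cleaves lysophospholipids to lysophosphatidic acid, a signalling lipid, and Clec2g encodes a C-type lectin-like membrane protein of a family whose members serve as ligands for receptors of natural killer cells.

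Values are RPM, reads over the exons of a gene scaled to the size of the library, and are linear. In each library all values were whole multiples of a single step, taken as 1 read, which gave 1.24e+07 to 1.57e+07 reads per library. A floor of 3 reads then lies between 0.192 and 0.242 RPM. Smarcad1 itself was measured at 105, 94.7 and 96.3 RPM in WT and at 21.7, 21.3 and 24.03 RPM in KO. It fell by 2.14 on the log2(RPM + 0.1) scale (SE 0.10, limma adjusted p = 5.59e-05), and 22.6% of its WT level remained. The exon sum includes exons outside the deleted stretch. Of 12 general epithelial markers only Krt18, a keratin, was in the table, at a log2 difference of 0.66 (0.05 once a trend with transcript length was removed), so the labelled tissue could be checked only in part. Of 15 stromal markers none was in the table.

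All 5 genes had each KO library above each WT library, which also held for 51.3% of all listed genes, where 98.5% had groups that did not overlap in one direction or the other. The lowest KO library was at least 4 times the highest WT library for each of the 5, against 2.54% of the listed genes, and 7.68% reached 2 times. Nothing is read from either count, because the genes were chosen on this contrast. Earlier readings called the genes switched on outside their usual tissue. In WT, however, Khdc1a, Bglap3, Gdpd3 and Aplp1 already had between 13 and 560 reads in every library. Clec2g alone was at or under the 3-read floor in all WT libraries, as were 11 of the 1420 listed genes. Being switched on thus describes Clec2g, while the other 4 genes were low to moderate in WT and higher in KO.

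**Figure D1:**
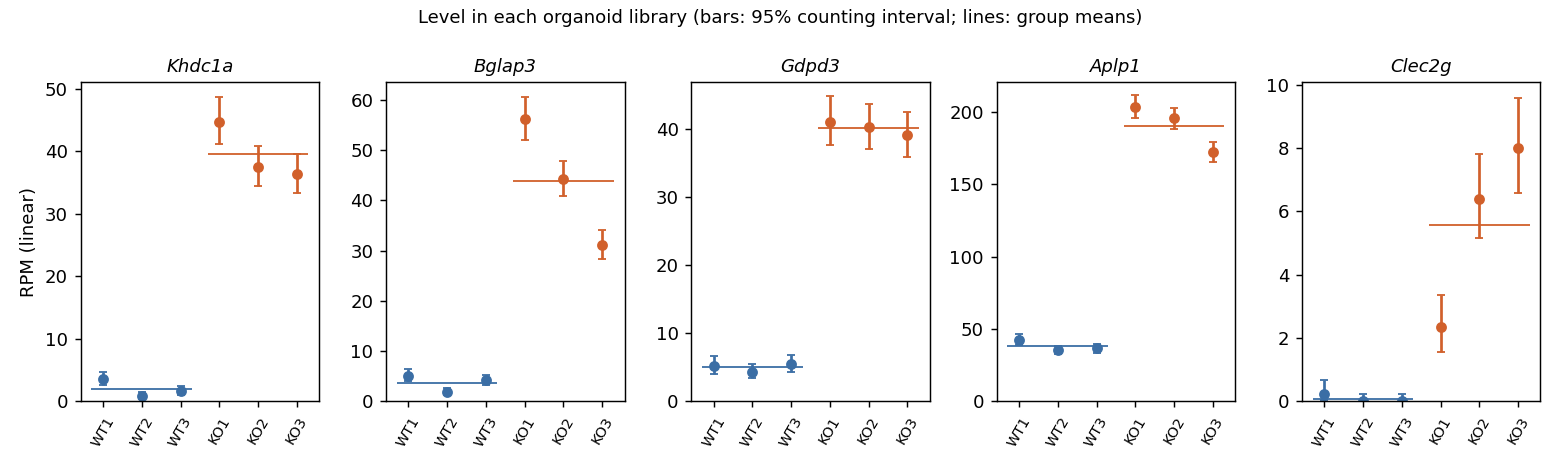
RPM (linear axis, a separate scale for each gene) of the 5 genes in each WT (blue) and KO (orange) library, with 95% exact Poisson intervals that cover counting error only and a line at each group mean. The groups do not overlap for any of the 5 genes, the KO libraries of Gdpd3 lie within 39.2 to 41.1 RPM, and those of Clec2g spread from 2.33 to 7.99 RPM.

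Khdc1a (ENSMUSG00000067750) lies on chromosome 1 at chr1:21349641-21352200 on the plus strand of GRCm38, with 3 exons and 1 annotated transcript. It was measured at 3.58, 0.830 and 1.63 RPM in WT replicates 1 to 3, that is 46, 13 and 25 reads. In KO replicates 1 to 3 it was at 44.8, 37.5 and 36.4 RPM, or 556, 547 and 519 reads. The KO libraries lay close together, while WT replicate 1 had more than the other WT libraries. WT averaged 2.01 ± 1.41 RPM and KO averaged 39.6 ± 4.55 RPM (SD, n = 3 each), a KO/WT ratio of 19.7. The log2 difference was 4.45 (SE 0.46), the 8th largest rise in the table. Without WT replicate 1 the KO/WT ratio was 32.1, and with a pseudocount of 1 the log2 difference was 3.85. In WT, Khdc1a stood at percentile 6.90 of the listed genes by mean RPM, and in KO at percentile 38.0.

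The reading of Khdc1a rests on how its reads were told apart from those of its nearest relative. Khdc1c lies 16131 bases downstream on the same strand, and the coding sequences of Khdc1a and Khdc1c are identical in 500 of 501 bases (99.8%). The only coding difference, at base 416 counted from 1 at the start codon, is shown in capitals in bases 386 to 445 of both, read from the GENCODE M21 transcripts.
Khdc1a: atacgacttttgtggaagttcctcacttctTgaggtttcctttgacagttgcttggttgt
Khdc1c: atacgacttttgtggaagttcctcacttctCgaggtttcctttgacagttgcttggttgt
Of all 50-base stretches of the Khdc1a transcript, 43.5% also occurred in another annotated gene, 42.2% in Khdc1c and 4.13% in Khdc1b, and these shares can overlap. The authors kept uniquely mapped reads, so pairs that lay wholly in such stretches had no single place to map. Neither Khdc1b nor Khdc1c is in the table, and their levels were not analysed here. The value of Khdc1a is therefore uncertain to the extent that its reads could be split with these copies.

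Bglap3 (ENSMUSG00000074489) lies on the minus strand at chr3:88368616-88372743, with 4 exons after its 5 transcripts are merged. Its WT replicates 1 to 3 were at 5.13, 1.92 and 4.18 RPM (66, 30 and 64 reads), and its KO replicates at 56.2, 44.3 and 31.1 RPM (698, 645 and 444 reads). The groups did not overlap, but both were spread wider than those of most listed genes. The coefficient of variation was 44.1% in WT and 28.6% in KO, against medians of 8.34% and 13.4% over all listed genes. The means were 3.74 ± 1.65 RPM in WT and 43.9 ± 12.5 RPM in KO (SD, n = 3 each), a ratio of 11.7 and a log2 difference of 3.59 (SE 0.39), the 17th largest rise. Bglap and Bglap2, the genes of bone osteocalcin, lie 10758 and 4993 bases upstream on the same strand and are not in the table. Their coding sequences match that of Bglap3 in 95.5% and 96.9% of 288 bases. The first 90 coding bases show how alike the genes are, with capitals where a gene differs from Bglap3.
Bglap3: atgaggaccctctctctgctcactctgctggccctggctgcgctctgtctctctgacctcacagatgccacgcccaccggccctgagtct
Bglap2: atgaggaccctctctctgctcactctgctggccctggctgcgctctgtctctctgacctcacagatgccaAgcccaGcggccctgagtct
Bglap: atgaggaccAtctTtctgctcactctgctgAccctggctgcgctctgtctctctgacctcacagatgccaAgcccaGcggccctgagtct
In this stretch Bglap2 differs from Bglap3 at 2 bases and Bglap at 5. Over the whole Bglap3 transcripts, 11.5% of 50-base stretches were shared with another gene, 5.88% with Bglap2 and 4.04% with Bglap. Taken over all 5 annotated transcripts together, most stretches thus occurred in no other gene. The share was not measured for the coding part alone, whose 288 bases are close to those of Bglap and Bglap2. Reads from that part are uncertain, and how much of the Bglap3 value they make up was not measured.

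Gdpd3 (ENSMUSG00000030703) lies at chr7:126766334-126775649 on the plus strand, with 8 merged exons. It was at 5.21, 4.34 and 5.48 RPM in WT (67, 68 and 84 reads) and at 41.1, 40.4 and 39.2 RPM in KO (511, 588 and 559 reads). It was the steadiest of the 5 genes in KO, with a coefficient of variation of 2.47%, at percentile 3.38 of the listed genes. The means were 5.01 ± 0.595 and 40.2 ± 0.992 RPM (SD, n = 3 each), a KO/WT ratio of 8.03 and a log2 difference of 2.99 (SE 0.12). Gm9967, a transcript on the other strand, overlaps Gdpd3 and accounts for all of the 8.95% of its 50-base stretches that were shared. The libraries were directional, but whether the counting used strand is not given in the sources used here, so reads of Gm9967 cannot be told apart from those of Gdpd3 in that stretch.

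Aplp1 (ENSMUSG00000006651) lies on the minus strand at chr7:30434982-30445535, with 15 merged exons. It was the most abundant of the 5 genes in both groups. WT replicates 1 to 3 were at 42.6, 35.3 and 36.5 RPM (548, 553 and 560 reads) and KO replicates 1 to 3 at 203, 196 and 172 RPM (2527, 2850 and 2458 reads). The means were 38.2 ± 3.89 and 190.4 ± 16.2 RPM (SD, n = 3 each), a ratio of 4.99, the smallest of the ratios given here, and a log2 difference of 2.32 (SE 0.12). None of its 50-base stretches (0%) occurred in another annotated gene, and its coding sequence matched App in 63.7% and Aplp2 in 62.3% of aligned bases. No overlap of this kind touches the value of Aplp1.

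Clec2g (ENSMUSG00000000248) lies at chr6:128934381-128984707 on the plus strand, with 8 merged exons. Within its span 3 genes are annotated on the other strand, none of them in the table, whose reads could add to its count if strand was not used. It had 3 reads in WT replicate 1 (0.233 RPM) and 0 reads in WT replicates 2 and 3, where 3 reads would be 0.192 and 0.196 RPM. In KO replicates 1 to 3 it had 29, 93 and 114 reads, or 2.33, 6.38 and 7.99 RPM. All KO libraries were above the floor, and KO replicate 1 was well under the other KO libraries. Pooled over libraries and scaled for depth, 3 reads in WT against 236 in KO gave a ratio of 83.6 with an exact 95% interval of 28.3 to 408, for counting error only. The log2 difference was 5.08 (SE 0.62) and depends on the pseudocount. With values under the floor set to the floor it was 4.04, and with a pseudocount of 1 it was 2.50. Its KO mean of 5.57 ± 2.91 RPM (SD, n = 3) was the lowest of the 5 genes, at percentile 9.65 of the listed genes. The coding sequence is 90.5% identical to Clec2d over the aligned bases and 85.2% to Clec2i, but only 3.90% of its 50-base stretches were shared with any other gene.

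**Figure D2:**
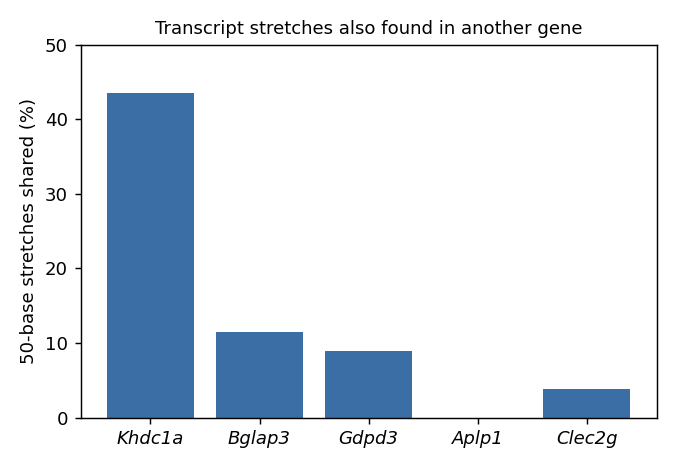
Share (%, linear axis from 0) of all 50-base stretches of each gene's annotated transcripts that also occur, on either strand, in a transcript of another annotated gene. The share is 43.5% for Khdc1a and 0% for Aplp1, with the other 3 genes between 3.90% and 11.5%.

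Per kilobase of exon, the WT level ran from Aplp1 (12.6 RPM per kb) through Gdpd3 (2.29), Bglap3 (1.42) and Khdc1a (1.01) to Clec2g (0.0273 RPM per kb). This scale divides by all exon bases of the merged transcripts. It makes no allowance for stretches shared with other genes or for which transcripts were in use. Such stretches made up 43.5% for Khdc1a, against 11.5% for Bglap3 and 0% for Aplp1. Khdc1a may therefore be understated here, and its place in the order is uncertain. The library ranges of Bglap3 (0.729 to 1.95) and Khdc1a (0.418 to 1.80 RPM per kb) overlapped, and the other neighbours in this order did not. In KO, Aplp1 stood at 63.1 RPM per kb and Clec2g at 1.96 RPM per kb. Between them, Khdc1a (19.9), Gdpd3 (18.4) and Bglap3 (16.7 RPM per kb) had overlapping library ranges on this scale. Gdpd3 and Bglap3 had no order beyond their spread. Where Khdc1a stood against them is uncertain, because its level may be understated. In WT the lowest library of Gdpd3 (1.99) was just above the highest of Bglap3 (1.95 RPM per kb), and in KO their ranges overlapped. That narrow WT order is uncertain, because shared stretches and the transcripts in use could shift it. Gdpd3 also stood apart from Khdc1a in WT and not in KO on this scale, which is uncertain because Khdc1a may be understated.

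**Figure D3:**
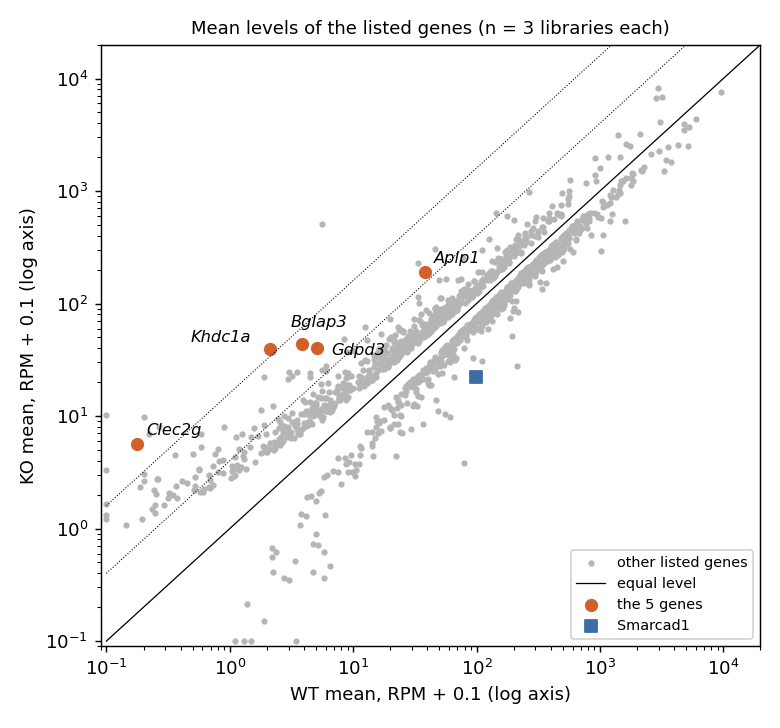
Mean RPM + 0.1 in KO against WT for the 1420 listed genes, on log axes, with the 5 genes in orange, Smarcad1 in blue, the line of equal level, and dotted lines at 4 and 16 times that level. The 5 genes lie above the lower dotted line, with WT means from 0.0777 RPM for Clec2g to 38.2 RPM for Aplp1.

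The libraries of a group did not rank alike for all genes. WT replicate 1 was the highest WT library for 4 of the 5 genes, all but Gdpd3, where it was the highest for 31.4% of the other listed genes that were higher in KO and for 45.2% (33 of 73) of those with a log2 rise of at least 2. Its excess over the mean of WT replicates 2 and 3 amounted to 5.93% of the KO mean for Khdc1a, 4.75% for Bglap3, 4.19% for Clec2g, 3.50% for Aplp1 and 0.733% for Gdpd3. The counting intervals of WT replicate 1 and the next highest WT library overlapped for Bglap3, Aplp1 and Clec2g, and were apart for Khdc1a alone. In KO, replicate 1 was the highest for Khdc1a, Bglap3, Gdpd3 and Aplp1, as it was for 50.7% of the other genes higher in KO, but the lowest for Clec2g. The log2 difference between KO replicates 1 and 3 was 0.85 for Bglap3, at percentile 94.1 of the listed genes, and -1.73 for Clec2g, at percentile 0.563. Bglap3 and Clec2g therefore spread over the KO libraries in opposite ways.

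Over the 6 libraries, likeness was measured as the root mean square (RMS) distance between gene-centred log2(RPM + 0.1) values. This distance includes the difference between KO and WT, on which the 5 genes were chosen. Near genes are therefore mainly those with a rise of like size, and nearness does not show that they vary together within a group. Among the 5 genes, Gdpd3 and Aplp1 were closest (0.352) and Aplp1 and Clec2g farthest apart (1.58) at this pseudocount. These distances were not measured with a pseudocount of 1, where the log2 differences of Aplp1 (2.29) and Clec2g (2.50) lay near each other. The distance between Aplp1 and Clec2g thus depends on the pseudocount. The genes nearest to Gdpd3 outside the 5 were Nxf7 (0.145), an mRNA export factor relative on chromosome X that went from 2.92 to 24.5 RPM, and Sh3bgr (0.254). Nearest to Aplp1 were Me3 (0.152), a mitochondrial malic enzyme at 4.40 RPM in WT and 22.1 RPM in KO, and D330041H03Rik (0.181). Khdc1a was nearest to Rpl39l (0.369) and Ccdc69 (0.576), Bglap3 to Tlr4 (0.477) and Gm45104 (0.489), and Clec2g to Tnfrsf23 (0.582) and Ccdc69 (0.631). Genes such as Rpl39l, Ccdc69 and Tnfrsf23 had 0 RPM in WT replicates 2 and 3, so their likeness rests in part on the pseudocount. Of these 10 choices, 2 were repeated with a pseudocount of 1 and 0 with Pearson's correlation, so the order of likeness depends on the measure.

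The 250 bases before the annotated RefSeq start (GRCm38.p6) are shown for the 4 genes that have an entry, as a description side by side. The genes were chosen for their rise, so nothing is read from this about a shared control. Capitals mark each CG, the site of DNA methylation in mammals, and the sequences run along the strand of the gene. They cover chr3:88372742-88372991 for Bglap3, chr7:126766164-126766413 for Gdpd3, chr7:30445583-30445832 for Aplp1 and chr6:128934131-128934380 for Clec2g. Bglap3 has 3 entries, of which the one at the outer end of the gene is shown.
Bglap3: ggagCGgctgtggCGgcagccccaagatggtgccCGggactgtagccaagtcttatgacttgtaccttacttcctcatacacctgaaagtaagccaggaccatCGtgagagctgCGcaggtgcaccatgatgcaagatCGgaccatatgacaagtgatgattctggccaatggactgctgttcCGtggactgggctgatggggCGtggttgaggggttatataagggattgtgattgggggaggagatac
Gdpd3: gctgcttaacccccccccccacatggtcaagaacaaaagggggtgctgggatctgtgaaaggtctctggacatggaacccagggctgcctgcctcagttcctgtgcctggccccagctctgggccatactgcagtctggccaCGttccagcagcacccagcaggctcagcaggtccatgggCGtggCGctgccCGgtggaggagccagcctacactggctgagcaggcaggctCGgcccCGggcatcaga
Aplp1: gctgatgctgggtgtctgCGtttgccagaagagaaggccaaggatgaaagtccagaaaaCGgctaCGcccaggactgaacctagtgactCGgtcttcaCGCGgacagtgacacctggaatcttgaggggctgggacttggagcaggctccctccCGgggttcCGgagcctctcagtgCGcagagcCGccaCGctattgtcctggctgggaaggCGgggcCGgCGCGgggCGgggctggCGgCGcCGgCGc
Clec2g: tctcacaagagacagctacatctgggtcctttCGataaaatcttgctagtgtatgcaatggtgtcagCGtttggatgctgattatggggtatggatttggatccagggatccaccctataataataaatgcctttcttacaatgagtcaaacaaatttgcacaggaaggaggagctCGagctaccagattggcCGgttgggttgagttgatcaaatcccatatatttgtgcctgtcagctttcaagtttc
Aplp1 had 20 CG, at percentile 83.7 of 32851 promoter stretches of this length, whose median was 6. Bglap3 had 8, Gdpd3 had 6 and Clec2g had 4, so no CG density was common to the group. GC content ran from 43.2% in Clec2g to 66% in Aplp1, against a median of 52.4%. The letters TATANA, searched on both strands, occurred among these 4 stretches in that of Bglap3 alone, 33 bases before the start, where the match TATATA reads alike on both strands. The other 2 entries of Bglap3 do not hold these letters. Such a match is found in 22.6% of all the stretches. The RefSeq and GENCODE starts differ for Gdpd3 and Aplp1. The Gdpd3 stretch runs past 126766334, where its GENCODE gene begins, and most of its CG lie inside that gene. For Aplp1 the RefSeq start lies outside the GENCODE gene, which ends at 30445535. Which start site the organoids used cannot be read from exon sums.

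Position along the chromosome was not used to choose the genes. Within 100 kb of the 5 genes lie 89 annotated genes, 45 of them protein-coding, and 5 of these are in the table, which is 11.1% of the protein-coding neighbours, where 6.07% of all protein-coding genes are listed. A reach of 50 kb gave 4 of 27 and one of 500 kb gave 13 of 184 protein-coding genes (7.07%). The number of neighbours is small and no test was made of the share.

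Of the 5 listed neighbours, Kirrel2, Ypel3 and Gsta3 were higher and Aldoa and Smg5 lower in KO. Kirrel2, a nephrin-like cell adhesion gene, starts upstream of Aplp1 and ends 1999 bases before it. It was at 0.155, 0.192 and 0.326 RPM in WT and at 1.45, 2.95 and 1.47 RPM in KO. WT replicates 1 and 2 were at or under 3 reads. The groups were apart, with a log2 difference of 2.62 (SE 0.32, limma adjusted p = 0.00137) at the pseudocount of 0.1. With a pseudocount of 1 it was 1.24, where Aplp1 was at 2.29, so the size for Kirrel2 depends on the pseudocount. Its KO mean of 1.96 RPM was far under that of Aplp1. Kirrel2 and Aplp1 both belong to the genes the study named as marks of Smarcad1 deletion in several datasets. Ypel3, which is linked to cell senescence, lies 1306 bases downstream of Gdpd3. It averaged 33.9 ± 4.62 RPM in WT and rose to 71.8 ± 11.3 RPM in KO (SD, n = 3 each), with a log2 difference of 1.08 (SE 0.17, limma adjusted p = 0.00259), or of 0.55 once a trend with transcript length was removed.

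Gsta3, a glutathione S-transferase 84.0 kb upstream of Khdc1a, rose from 181 ± 13.2 to 293 ± 12.1 RPM (log2 difference 0.69, limma adjusted p = 0.00237). Aldoa, a glycolytic aldolase on the other strand 19.6 kb beyond Gdpd3, fell by 0.49 on the log2 scale (limma adjusted p = 0.00557). Smg5, a factor of nonsense-mediated mRNA decay on the other strand 6.28 kb from Bglap3, went from 160.5 to 123.4 RPM, a log2 difference of -0.39 (limma adjusted p = 0.0185) that lost the threshold without WT replicate 1 (0.0617) and without KO replicate 2 (0.0664). Mapk3, which ends 515 bases before Gdpd3, and Paqr6, 75 bases from Bglap3, are closer than any of these neighbours, and neither is in the table.

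**Figure D4:**
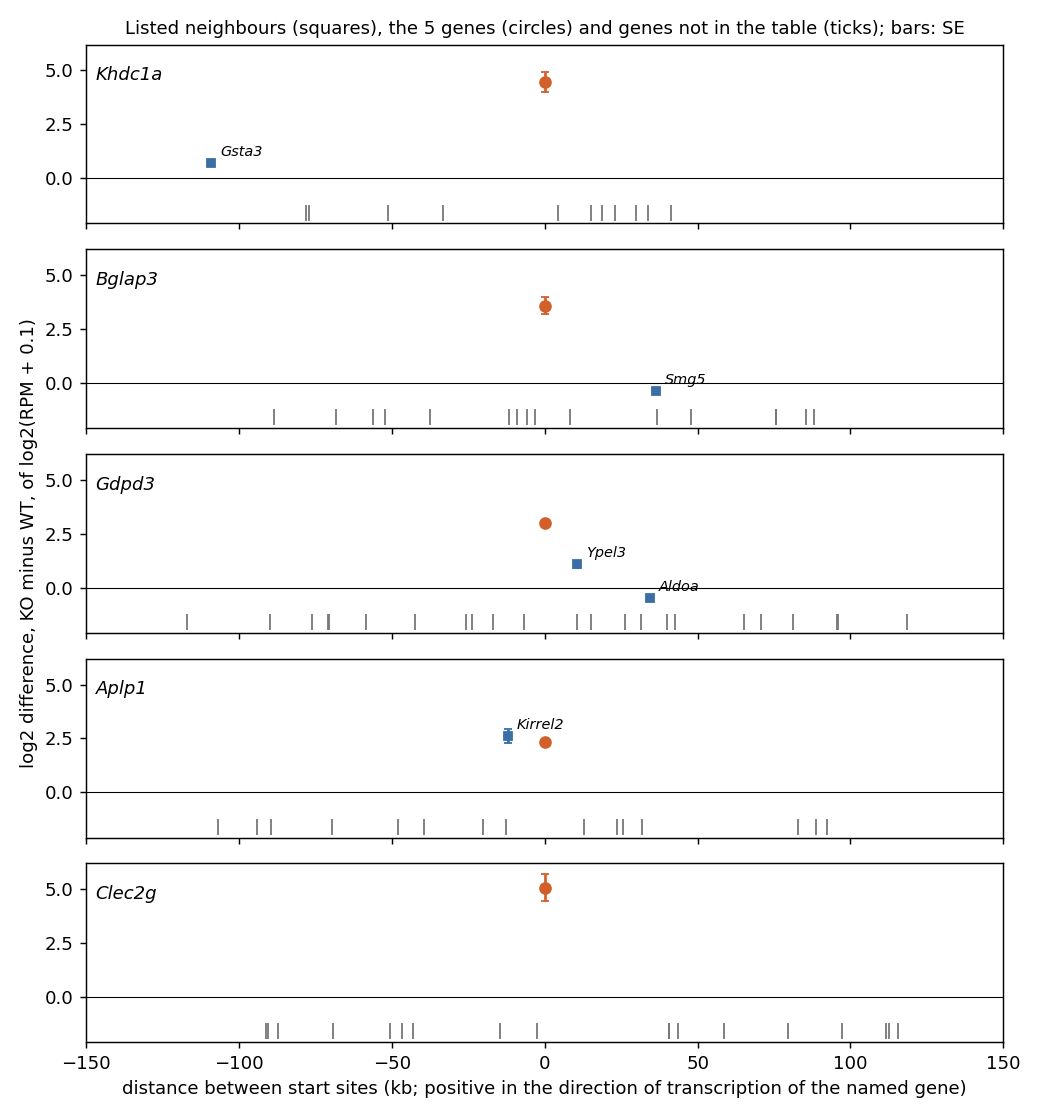
Log2 difference, KO minus WT, of log2(RPM + 0.1) with its SE for each of the 5 genes (circles) and their listed neighbours (squares), against the distance between start sites in kb, with ticks for annotated genes within 100 kb that are not in the table. Kirrel2 is at 2.62 at this pseudocount (1.24 with a pseudocount of 1) and Aplp1 at 2.32, no listed neighbour flanks Clec2g, and Kcnq5, whose start lies 612 kb from that of Khdc1a, is outside the axis.

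The families and pathways of the 5 genes were then read from lists of named genes. In these counts "rose" and "fell" refer to the limma test over the whole table, which called 52.5% of the listed genes higher and 47.4% lower in KO (99.9% either way), so being called says little beyond being listed. With the length trend removed, 515 listed genes were called higher and 660 lower, so the larger side changed. The median log2 difference of all listed genes was 0.38. Of 51 genes of the oocyte and early embryo only Khdc1a and Gdf9 were listed. Gdf9, a growth factor of the oocyte, fell from 8.59 to 3.68 RPM, a log2 difference of -1.22 (SE 0.30). Of 27 osteoblast and bone matrix genes Bglap3 alone was listed. The listed share was 3.92% for the oocyte list and 3.70% for the bone list, and in the lists described next it was 23.8% for the Gla proteins and vitamin K cycle, 20% for both the lysophospholipid and the amyloid list, 8.33% for the neuronal and 7.69% for the Clec2 list. Of all protein-coding genes 6.07% are in the table, each list counts a gene chosen for its rise, and no test was made of these shares.

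Bglap3 belongs to the Gla proteins, in which vitamin K serves as cofactor for a carboxylation that lets them bind calcium. Of 21 genes of this group and of the vitamin K cycle, 5 were listed. Gas6, a Gla protein that is the ligand of the TAM receptor kinases, rose from 216.5 to 402.8 RPM (log2 difference 0.90). Vkorc1, which reduces vitamin K, rose from 44.5 to 74.3 RPM (0.73), but was at -0.01 once a trend with transcript length was removed. Proz, a plasma Gla protein, fell by 1.00 and the quinone reductase Nqo1 fell by 0.74 on the log2 scale. Apart from Bglap3 the group was thus evenly split.

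Around Gdpd3, 7 of 35 genes of glycerophosphodiesterases and lysophospholipid signalling were listed, and no other glycerophosphodiesterase of the Gdpd family was among them. Abhd4, an N-acyl phospholipid hydrolase, rose by 0.54, Liph, a lipase that forms lysophosphatidic acid, by 0.52, and the lysophosphatidic acid receptor Lpar6 by 0.43 on the log2 scale. The receptor Lpar5 fell by 0.60, the fatty acid amide hydrolase Faah fell by 0.52 and the acyltransferase Lpcat3 fell by 0.48. Abhd4 lost the threshold with the length trend removed (0.32), Lpar6 without WT replicate 1 (limma adjusted p = 0.0535) and Lpar5 without WT replicate 2 (0.0512). All 6 differed less than Gdpd3 did, with 2.99 on the same scale.

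Of 35 genes of the amyloid precursor family and its processing, 7 were listed, Aplp1 among them, and of the other 6 genes 4 were higher and 2 lower. App and Aplp2 were not among them. Bace2, a protease that cleaves amyloid precursor proteins, was at 10.7, 12.8 and 13.8 RPM in WT and at 33.9, 36.4 and 23.7 RPM in KO, a log2 difference of 1.31 (SE 0.19). Aph1b, a subunit of gamma-secretase, had a log2 difference of 1.42 (SE 0.33) at 1.21 to 6.93 RPM. The sorting receptor Sorcs2 and the membrane protein Itm2c rose by 0.67 and 0.63, but Sorcs2 lost the threshold without WT replicate 3 or KO replicate 2 and Itm2c with the length trend removed (0.27). Sorl1, which sorts the amyloid precursor protein, went the other way, from 207, 249 and 188 RPM in WT to 25.6, 25.3 and 32.7 RPM in KO, a log2 difference of -2.94 (SE 0.16). The adaptor gene Apbb2 fell by 0.54. Of 36 neuronal genes 3 were listed, and beside Aplp1 the kinase Camk2b rose by 1.67 while the glutamate receptor subunit Grin1 fell by 0.68 on the log2 scale.

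For Clec2g the related genes are its neighbours in the natural killer gene complex. Of 39 Clec2 and natural killer lectin receptor genes 3 were listed, Clec2g and 2 others. Clec2h was at 296, 341 and 266 RPM in WT and at 731, 593 and 448 RPM in KO, a log2 difference of 0.95 (SE 0.20, limma adjusted p = 0.00592). Clec2d, a ligand of an inhibitory receptor of natural killer cells, averaged 45.5 ± 2.15 RPM in WT and rose to 63.8 ± 8.35 RPM in KO (SD, n = 3 each), with a log2 difference of 0.48 (limma adjusted p = 0.0113), which turned to -0.17 with the length trend removed. Clec2h and Clec2d lie 257 and 196 kb from Clec2g on the same strand. KO replicate 1 was the highest KO library for both, where it was the lowest for Clec2g, and both were well expressed in WT, where Clec2g was at the floor. No Klrb1 receptor gene was listed.

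Of 31 genes of heterochromatin and silencing 3 were listed. Smarcad1 and the histone demethylase gene Kdm4b (log2 difference -0.44) were lower and Mbd1, which binds methylated DNA, was higher (0.43). Kdm4b lost the threshold without WT replicate 3 or KO replicate 2. Of 11 genes the study named as marks of Smarcad1 deletion 10 were listed, 9 higher and 1 lower, among them Khdc1a, Bglap3 and Aplp1. The lower gene, Tiam1, lost the threshold without KO replicate 2 or any of the WT replicates (limma adjusted p of up to 0.0865). That list was drawn in part from these libraries and is not independent evidence of a direction.

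**Figure D5:**
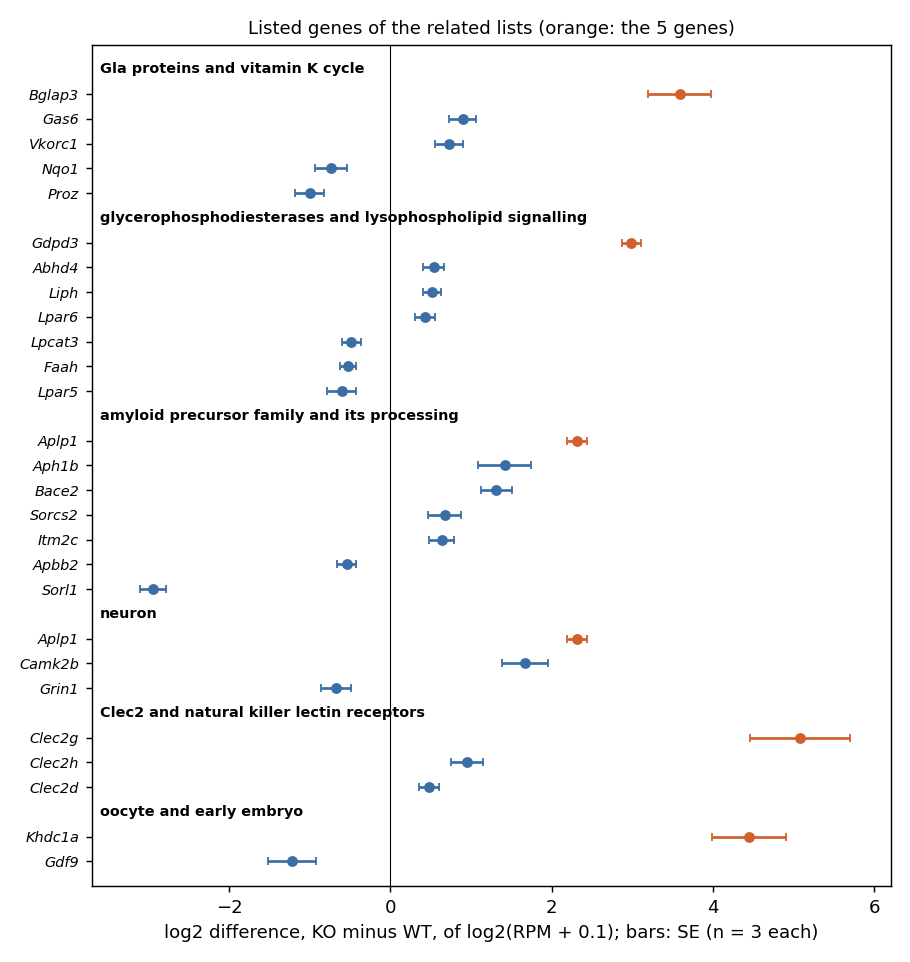
Log2 difference, KO minus WT, of log2(RPM + 0.1) with its SE (n = 3 each) for the listed genes of 6 lists that hold the 5 genes (orange): Gla proteins, lysophospholipid enzymes, amyloid precursor family, neuron, Clec2 and oocyte. The other listed genes of these lists (blue) lie between -2.94 for Sorl1 and 1.67 for Camk2b, on both sides of 0.

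Markers of epithelial cell types differed between the groups beside the 5 genes. Of 16 Paneth cell markers 10 were listed (62.5%) and all were higher in KO, with a summed level of 9198 to 10730 RPM in WT and 19550 to 28370 RPM in KO. Of 20 enteroendocrine markers 5 were listed (25%), all higher, with sums of 260.5 to 318 RPM in WT and 428.5 to 613 RPM in KO. Of 16 enterocyte markers 9 were listed (56.25%), 1 higher and 8 lower, with sums of 21900 to 24840 RPM in WT and 15850 to 17310 RPM in KO. Of 11 goblet cell markers 4 were listed (36.4%), 3 higher and 1 lower. Only 2 of 11 stem cell markers were listed (18.2%), each higher. Of 10 tuft cell markers 1 was listed (10%), Dclk1, which was lower. Their part in the 5 genes was not tested, and in such bulk samples fewer cells of a type and less RNA per cell cannot be told apart. Of 15 immune markers 2 were listed, Lyz2 higher (log2 difference 1.46) and Itgam lower (-1.15), with sums of 10.6 to 12.5 RPM in WT and 8.27 to 11.7 RPM in KO, and of 12 markers of enteric glia and neurons, which would be the nearest neural cells to Aplp1, none was listed. Once the length trend was taken out, 3 Paneth and 2 enteroendocrine markers and 1 goblet marker were called higher. With WT replicate 1 or 3 left out, 5 enterocyte markers were called lower.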

How the data were processed

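Per the study's methods, the authors trimmed adaptors with Trim Galore 0.4.2 and mapped to GRCm38 with HISAT2 2.0.3. Uniquely mapped reads were quantified per gene by the authors in SeqMonk, over exons of merged transcripts. The authors selected genes with DESeq2, run on their raw counts, and deposited the 1420 that passed (highest FDR 0.0494, a corrected p-value). The deposited unit is RPM per library, linear and not divided by transcript length. Genes outside that table were not analysed here. Every RPM value was within 0.1 of a whole multiple of one step per library, read as 1 read, but under 100 low values per library were left to check this, so no count test was run. Depth was 1.24e+07 to 1.57e+07 reads, of which the listed genes held 27.5% to 30.6%. Intervals and floors cover counting error only, because reads without molecular identifiers are not independent molecules.

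The 5 genes and the gene lists were chosen with earlier results of these data known. All listed genes were fitted with limma 3.58.1 (R 4.3.3) on log2(RPM + 0.1), KO against WT by sample title, two-sided, with Benjamini-Hochberg adjustment over 1420 genes and a threshold of 0.05. Fold changes on this scale understate those of low genes. The listed genes had already passed the authors' test on the same libraries, so a call here is no separate evidence. On simulated data for this comparison with 1420 genes, 196 of 200 changed genes were recovered and 13 of the unchanged genes were called. The simulation used a single spread for all genes, raised low genes off the floor and held no length trend. Its counts therefore check the code and do not carry over to these libraries. Genes were joined to GENCODE M21 (1397 of 1420 matched, 1242 with identical start and end). Promoter stretches came from RefSeq (GRCm38.p6), where 4 of the 5 genes had an entry, and coding sequences from GENCODE. Named genes are Smarcad1, the 5 genes, listed genes within 100 kb of them, their family members, the 2 genes nearest in pattern among genes with a mean of at least 1 RPM, and up to 4 genes per list with the largest log2 difference. Further genes of some lists are named to complete their counts and were chosen after their values were seen. Alternatives were a pseudocount of 1, centred libraries, a replicate block, removal of a length trend, a 3-read floor, a minimum mean of 1 RPM, an intensity trend, a minimum log2 change of 1, other distances, Pearson's correlation, and leaving out each library.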

Additional observations from a re-analysis of the deposited data

How the results depend on the processing

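The 5 genes stayed higher in KO under each alternative run. A pseudocount of 1 moved the log2 difference of Khdc1a to 3.85, Bglap3 to 3.27, Gdpd3 to 2.78 and Clec2g to 2.50, and the 3-read floor moved Clec2g to 4.04. Removing the length trend moved Khdc1a to 3.96, Bglap3 to 3.25, Gdpd3 to 2.55, Aplp1 to 2.06 and Clec2g to 4.78, while the median of all listed genes moved by -0.43 on the log2 scale. Leaving out each library in turn gave 3.97 to 4.96 for Khdc1a, 3.18 to 3.86 for Bglap3, 2.89 to 3.05 for Gdpd3, 2.26 to 2.40 for Aplp1 and 4.73 to 5.65 for Clec2g. With a minimum log2 change of 1, 270 listed genes were called higher and 115 lower. Leaving out libraries gave 621 to 734 higher and 508 to 670 lower. Neighbours numbered 13 at 500 kb, and 2 and 0 of the 10 choices of a gene nearest in pattern were shared with a pseudocount of 1 and with Pearson's correlation. With a replicate block 714 genes were called higher and 637 lower, and 5 instead of 8 enterocyte markers lower, while the differences of the 5 genes are the same by construction and the SE went from 0.46 to 0.35 for Khdc1a and from 0.62 to 0.74 for Clec2g. Same-numbered libraries correlated at -0.08, 0.09 and 0.06, so the numbers were not taken to pair them. Reads limit Clec2g most, with 3 in all of WT. The causes of these shifts were not tested.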
